A study of Mus musculus with 8 samples.

Results

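Convoluted proximal tubule cells are the epithelial cells of the first, coiled stretch of the nephron tubule, and 636 of 6495 tagged cells of embryonic mouse kidneys (9.79%) met the rule for them. Tagged cells are those with the tag of 1 of 4 listed mice, from a pool that also held cells with 4 other tags. A barcode was taken as a cell with at least 6890 UMIs (unique molecular identifiers, each counting 1 captured RNA molecule), 200 or more genes and no more than 10% mitochondrial UMIs. It was given to a mouse if 1 multiplexing tag held at least 50 counts and 80% of its tag counts, and counted as a convoluted proximal tubule cell if Fbp1 and Slc34a1 together reached 20 UMIs. The kidneys came from 2 male Trim28Δ/Δ mice (mice 1 and 2) and 2 male Trim28f/f control mice (mice 3 and 4), at E17.5 by the labels and a day later by the paper. Trim28f carries loxP sites around the middle part of the gene, and Trim28Δ is the allele left after recombination by Six2-cre. The Six2 promoter drives this transgene in nephron progenitors, from which the proximal tubule descends, whereas stroma, vessels and collecting ducts arise from other lineages. Whether the controls carried the transgene is not given in the labels. All cells shared 1 pool, with 2 mice for each genotype, and bulk RNA of newborn kidneys in the same series was not analysed here.

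The convoluted proximal tubule takes back most of the filtered sodium, phosphate, glucose, amino acids and small proteins through a brush border of microvilli, and it secretes organic anions and cations into the urine. It makes glucose from lactate and amino acids and burns fatty acids rather than glucose. TRIM28 (KAP1) is a corepressor that KRAB zinc finger proteins bring to transposable elements and imprinted regions, where it recruits a histone methyltransferase and keeps chromatin silent. Fbp1 encodes fructose-1,6-bisphosphatase, an enzyme of glucose synthesis, and Slc34a1 encodes a sodium-phosphate cotransporter of the brush border.

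The genotype of every cell rests on the tag anchored in its membrane. The 4 tags listed for the mice are shown because they alone tie a cell to a genotype.
Mouse 1, Trim28Δ/Δ: cgcgatatggtcgga
Mouse 2, Trim28Δ/Δ: cggattccacatcat
Mouse 3, Trim28f/f: aagatgaggtctgtg
Mouse 4, Trim28f/f: aagctcgttggaaga

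The cells had a median of 26023 UMIs and 5248.5 genes against 16465 UMIs and 4276 genes in the other tagged cells. The rule asks for a fixed number of UMIs and so favours deep barcodes. Median depth was 19679 UMIs in cells with 20 to 24 UMIs of Fbp1 and Slc34a1 and 39119.5 in those with 80 or more. The summed depth of the convoluted proximal tubule cells ranged from 3837903 to 5322779 UMIs per mouse. Median UMIs per cell were 25792 and 26438 in the Trim28Δ/Δ mice and 22749 and 28796 in the Trim28f/f mice, so the genotypes overlapped (difference 342.5 UMIs, exact permutation test over mice, two-sided, p = 1). The median mitochondrial share was 6.10% and 5.83% in the Trim28Δ/Δ mice and 4.97% and 5.80% in the controls, 0.573 percentage points apart (two-sided exact permutation test, p = 0.333, the smallest that 2 mice against 2 allow). Without mouse 3 this difference was 0.157 points and without mouse 4 it was 0.988 points. Scrublet, a doublet caller, marked 72 of the cells (11.3%) against 5.88% of all tagged cells, and the marked cells were kept. A further 1254 barcodes that met the gene rule had no clear tag and belong to no mouse here.

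The label was checked with 3 markers that the rule did not use. Gatm makes the precursor of creatine, Slc22a6 is the organic anion transporter OAT1, and Spp2 is a secreted phosphoprotein. Each had a UMI in 96.1% to 100% of the cells of every mouse, and 540 of the 636 cells (84.9%) held 20 or more UMIs of the trio. After every cell was thinned to 6902 UMIs, Gatm was still found in 83.2% to 89.0% of the cells. In 129 stroma-marker cells (50 or more UMIs of Col1a1, Col3a1 and Dcn; median depth 11062 UMIs), which should lack these genes, Gatm was found in 10.5% to 20% of cells, Slc22a6 in 17.6% to 30% and Spp2 in 25% to 58.8%. The 86 cells just outside the rule, with 15 to 19 UMIs of Fbp1 and Slc34a1, carried 218 CPM (counts per 1000000 UMIs) of Gatm and 583 CPM of Spp2. The 73 cells just inside, with 20 to 24 UMIs, carried 283 and 581 CPM, and the 162 cells with 80 or more UMIs carried 889 and 1790 CPM. Levels of these markers were thus graded across the limit of the rule, without a gap at it. Markers of the straight segment, the next stretch of the tubule, were present as well: 5 or more UMIs of 6 such genes were found in 77.0% and 72.7% of mutant and in 57.4% and 67.8% of control cells. For 6 markers of the early proximal tubule the shares were 59.9% and 71.0% of mutant and 76.1% and 81.4% of control cells. The rule thus did not set the convoluted cells cleanly apart from the straight segment or from early proximal tubule cells.

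The leading genes, ranked by the ratio of their mean CPM to that in the other tagged cells, included genes of reabsorption, secretion and glucose synthesis. They are a description, because expression chose the cells. CPM of cells summed per mouse were also scaled by TMM, here and below, with separate factors for the convoluted cells and for other classes. Ratios between classes are therefore approximate. Fbp1 led at 36.3-fold and Spp2 followed at 28.4-fold. Transporters of organic ions, Slc22a2 (27.1-fold), Slc22a6 (24.6-fold) and Slc22a19 (19.6-fold), stood among the 20 leading genes beside Abcc2 (20.6-fold), a pump that exports conjugates into the lumen. Pck1, which sets the rate of gluconeogenesis, was 22.1-fold higher. It varied from 201 to 623 CPM between the control mice.

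**Figure D1:**
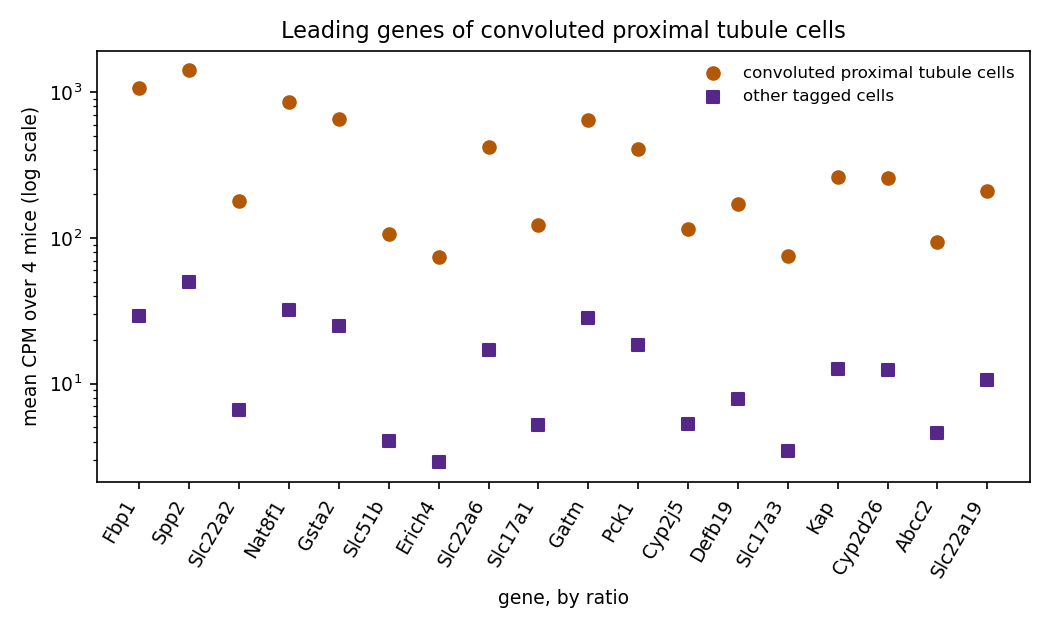
Mean CPM over 4 mice (log scale) of 18 of the 20 leading genes in convoluted proximal tubule cells (circles) and in the other tagged cells (squares), ordered by ratio from Fbp1 (36.3-fold) to Slc22a19 (19.6-fold). Spp2 has the highest level of those drawn in both, at 1416 and 49.8 CPM.

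Convoluted proximal tubule cells took up a larger share of the tagged cells in both Trim28Δ/Δ mice than in either control. They were 187 of 1168 cells in mouse 1 (16.01%, exact Clopper-Pearson 95% interval 13.95 to 18.2) and 176 of 1289 in mouse 2 (13.7%, 11.8 to 15.7). They were 155 of 2490 cells in mouse 3 (6.22%, 5.31 to 7.25) and 118 of 1548 in mouse 4 (7.62%, 6.35 to 9.06). The mean share was 14.8% ± 1.67 (SD, n = 2) against 6.92% ± 0.988 (SD, n = 2), 7.91 percentage points apart (two-sided exact permutation test over mice, p = 0.333, the smallest possible). The intervals cover counting error only. A share also moves with the other cells: tagged cells with 10 or more UMIs of the progenitor genes Six2, Cited1 and Eya1 numbered 4 and 4 in the Trim28Δ/Δ mice and 71 and 165 in the controls, and more proximal tubule cells and fewer other cells cannot be told apart. The rule counts Fbp1 and Slc34a1, so their level in a genotype moves the share too, and both genes differed between genotypes, as given below. With cells chosen by 20 UMIs of Gatm, Slc22a6 and Spp2 the difference was 5.73 points, and with cells of no more than 5% mitochondrial UMIs it was 3.04 points (6.20% against 3.16%), both without overlap.

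**Figure D2:**
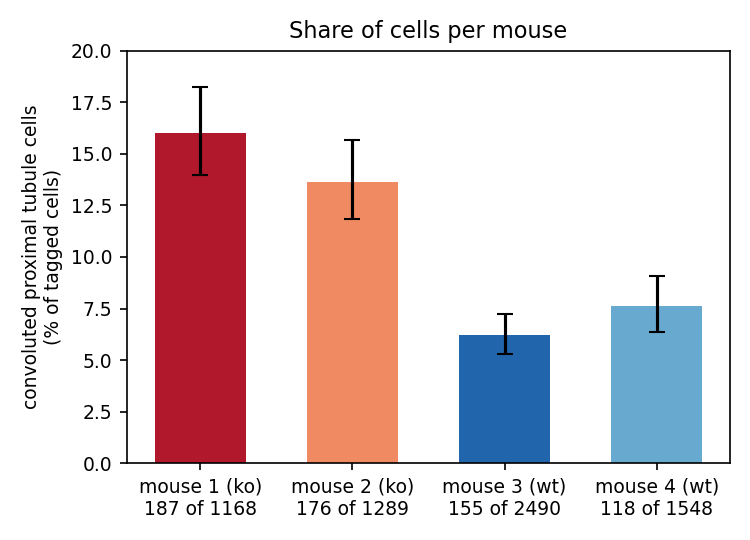
Convoluted proximal tubule cells as percent of the tagged cells of each mouse, with exact 95% binomial intervals and, under each bar, the cells counted. The Trim28Δ/Δ (ko) mice stand at 16.01% and 13.7% and the Trim28f/f (wt) mice at 6.22% and 7.62%.

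The pair of genes that chose the cells lay in opposite orders, which is given without a test. Fbp1 was at 1471 and 1164 CPM in the Trim28Δ/Δ mice and at 792 and 832 CPM in the controls. Slc34a1 was at 833 and 768 CPM in the Trim28Δ/Δ mice and at 1130 and 1210 CPM in the controls. The ratio of Fbp1 to Slc34a1 UMIs was 1.77 and 1.52 in mutant cells and 0.700 and 0.688 in control cells. The rule adds both genes, so that a cell low in one can enter through the other.

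Trim28, on chromosome 7 (12999114 to 13031035, GRCm38), was at 22.3 and 23.1 CPM in the mutant cells and at 64.9 and 76.1 CPM in the control cells. It fell by 1.63 on the log2 scale (SE 0.16, adjusted p = 0.0109, edgeR), with no overlap between mice. A Trim28 UMI was found in 38.0% and 42.0% of mutant and in 72.9% and 85.6% of control cells, or in 14.4% and 13.6% against 37.4% and 37.3% after thinning. In stroma-marker cells, of another lineage, Trim28 stood at 91.0 and 106 CPM in the mutants and at 107 and 130 CPM in the controls. The libraries count 3′ ends, which lie outside the deleted segment, so the Trim28 level is a limited check of the genotype. Free RNA of the pool, read from barcodes with 10 to 100 UMIs, held 115 CPM of Trim28, and its part in the mutant level was not tested.

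Between genotypes, 40 of 12018 genes tested in the convoluted proximal tubule cells were called (0.333%; edgeR quasi-likelihood test on UMIs summed per mouse, Benjamini-Hochberg adjusted p under 0.05). Of these, 38 were higher (0.316%) and 2 lower (0.0166%) in Trim28Δ/Δ cells, and 24 differed by at least 4-fold. Among the 24, Mas1, Grin2a, Nat8f5, Cyp2d12, Gm47547, Gm26640 and 2810429I04Rik passed the count filter only through the mutant cells, where they are high. The groups did not overlap for any of the 40, nor for 42.5% of all genes tested. DESeq2 called 86 genes higher and 32 lower (0.982% of those tested), with the 40 among them. Fbp1 (higher) and Slc34a1 (lower), which chose the cells, are among the genes tested and among these DESeq2 calls, and nothing is read from that. At p under 0.05 without adjustment edgeR had 1350 genes (11.2%), 738 higher (6.14%) and 612 lower (5.09%), the background for the counts of list members given below. Without the cells that Scrublet marked 56 genes were called, 37 of the 40 among them; Lxn and Zfp992 were not called and Dlk1 was no longer tested. The number of calls hung on single mice: edgeR called 0 without mouse 4, where 2875 genes had p under 0.05, 140 without mouse 3 and 22 without mouse 1. Each of those fits leaves 1 genotype with a single mouse, which is assumed to vary like the other genotype.

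The called genes are described by what their products do, in groups made after the calls were known and without a test of any group. Akr1c18, which inactivates progesterone, was at 172 and 130 CPM in mutant cells and at 6.04 and 2.07 CPM in control cells (log2 fold change 5.17, SE 0.34, adjusted p = 0.0019, edgeR). It was spread over the cells, with a UMI in 72.2% and 69.3% of mutant and 5.81% and 4.24% of control cells (48.7% and 46.6% against 3.23% and 2.54% after thinning). In stroma-marker cells, the background here, an Akr1c18 UMI was found in 2.94% and 3.33% of mutant cells and in 0 of 57 and 0 of 8 control cells, which allow shares of up to 5.26% and 37.5%. Akr1c21, a neighbour that acts on hydroxysteroids, was at 161 and 166 CPM against 23.9 and 23.6 CPM (log2 fold change 2.78, SE 0.13, adjusted p = 0.00106). Akr1c19, the most abundant gene of the cluster, was at 194 and 200 CPM against 181 and 137 CPM and was not called (0.30, adjusted p = 0.518). Of 9 Akr1c genes listed, 5 were tested and 2 called, both higher (against 0.316% of all genes called higher).

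Nat8, which acetylates cysteine conjugates on the way to mercapturic acids, was at 231 and 193 CPM in mutant cells and at 35.8 and 30.3 CPM in control cells (log2 fold change 2.68, SE 0.16, adjusted p = 0.00129). Its neighbour Nat8f5 was at 17.8 and 12.1 CPM against 1.57 and 0.259 CPM (adjusted p = 0.0426). Nat8f1, the most abundant of the family, was at 1089 and 802 CPM against 723 and 814 CPM, and its groups overlapped. In all 2 of 6 tested Nat8 genes were called, and 1 of 3 tested Cyp2d genes, Cyp2d12 (0.333% of all genes were called). Nat8f5 and Cyp2d12 passed the count filter through the mutant cells, where they are high, so nothing is read from these fractions. Cyp2d12 had 96 UMIs in the mutant and 2 in the control cells, a ratio of 37.6 with a 95% counting interval of 10.1 to 315. Cyp2d26, the abundant member of this drug-metabolising family, was at 243 and 247 CPM against 280 and 261 CPM. Reads of close paralogs may be divided or lost in counting, so the values of single Akr1c, Nat8 and Cyp2d genes are uncertain.

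Further called enzymes included Sult1c2, a sulfotransferase, at 61.8 and 73.1 CPM against 9.40 and 17.6 CPM (log2 fold change 2.34), and Inmt, which methylates indolethylamines, at 26.5 and 31.2 against 8.95 and 6.73 CPM (1.87). Blvra, which reduces biliverdin, was at 159 and 160 against 62.9 and 76.1 CPM (1.20). Aldh1a2, which makes retinoic acid, was at 172 and 214 against 92.6 and 81.8 CPM (1.14). Slco1a6, an organic anion transporter, was the 1 called gene of 19 tested in organic ion transport, against 0.333% of all genes. It was at 51.6 and 48.4 against 14.1 and 13.98 CPM (1.83, adjusted p = 0.00886, edgeR). In each of these genes both mutant mice lay above both controls, as in every gene called higher and in 21.7% of all genes tested.

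Other called genes encode enzymes of intermediary metabolism. Acmsd, which steers tryptophan breakdown away from NAD synthesis, was at 166 and 177 CPM in mutant cells and at 30.7 and 32.1 CPM in control cells (log2 fold change 2.45, SE 0.13, adjusted p = 0.00106). An Acmsd UMI was found in 75.4% and 79.5% of mutant and 23.9% and 32.2% of control cells (54.0% and 55.7% against 11.0% and 16.1% after thinning). Stroma-marker cells gave shares of 8.82%, 10.0% and 3.51% in mice 1 to 3. Ivd, of leucine breakdown, was at 157 and 170 against 61.1 and 49.7 CPM (1.56). Echdc2, a mitochondrial protein related to enoyl-CoA hydratases, was at 141 and 140 against 50.8 and 47.9 CPM (1.51). Mpv17l, a membrane protein linked to peroxisomes and mitochondria, was at 253 and 240 against 46.1 and 38.6 CPM (2.54, adjusted p = 0.00106). Fbp2, the second fructose bisphosphatase, lies beside Fbp1 on chromosome 13 and was at 327 and 309 against 132 and 149 CPM (1.18). Enzymes of nucleotide synthesis were called too, Ppat of the purine pathway (1.31) and Dctd, a deoxycytidylate deaminase (2.76).

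The next genes encode secreted and signalling proteins. Defb29, a beta-defensin, was at 305 and 255 CPM in mutant cells and at 47.4 and 54.3 CPM in control cells (log2 fold change 2.46, SE 0.15, adjusted p = 0.00129). Defb19, one of 5 other defensins tested, was at 143 and 186 against 113 and 238 CPM, and its groups overlapped. Guca2b, which encodes uroguanylin (1.29), Mas1, the receptor for a shortened angiotensin (3.05), Grin2a, a subunit of the NMDA receptor (3.69), and Lxn, a carboxypeptidase inhibitor (1.39), were called as higher. In the control mice Mas1 had 8 and 7 UMIs and Grin2a 5 and 3, and both passed the count filter through the mutant cells. Ttr, which carries thyroxine, was at 186 and 212 against 42.1 and 25.9 CPM (2.54, adjusted p = 0.00713). A Ttr UMI was found in 37.4% and 33.5% of mutant and 21.3% and 28.0% of control cells (23.0% and 22.2% against 9.68% and 8.47% after thinning), and 1 cell held 32.0% of those of mouse 2. In stroma-marker cells the Ttr shares were 14.7%, 10.0%, 5.26% and 12.5% in mice 1 to 4, and free RNA held 49.8 CPM of Ttr, above both control levels. The gene that fell beside Trim28 was Serpinf1, the secreted factor PEDF, at 7.38 and 9.07 against 36.3 and 25.6 CPM (log2 fold change -1.91, SE 0.25, adjusted p = 0.0383).

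**Figure D3:**
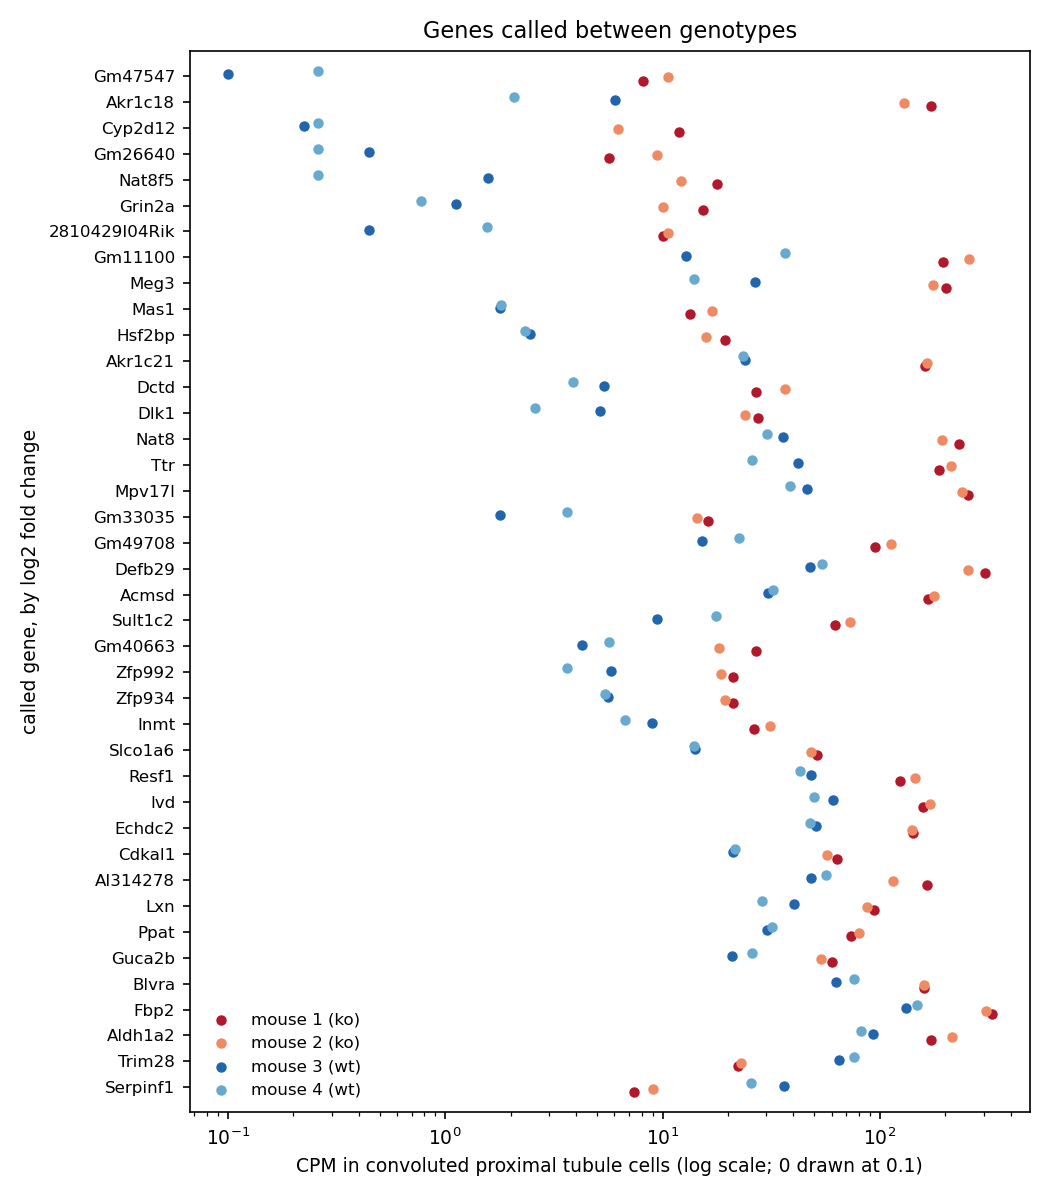
CPM (log scale, 0 drawn at 0.1) in the convoluted proximal tubule cells of each mouse for the 40 called genes, ordered by log2 fold change, with reds for Trim28Δ/Δ (ko) and blues for Trim28f/f (wt) mice. In Trim28 and Serpinf1, at the bottom, the ko mice lie to the left, and in the other 38 genes they lie to the right.

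Among imprinted genes, edgeR called 2 of 20 tested, Meg3 and Dlk1 on chromosome 12, and DESeq2 called 3 higher (these and Rian) and 2 lower (H19 and Cdkn1c), against 0.333% and 0.982% of all genes. At p under 0.05, 3 of the 20 were higher (15%) and 4 lower (20%), against 6.14% and 5.09%. The median log2 fold change of the 20 was -0.14. The long noncoding RNA Meg3 was at 200 and 176 CPM in mutant cells and at 26.6 and 13.98 CPM in control cells (log2 fold change 3.20, SE 0.26, adjusted p = 0.00674). A Meg3 UMI was found in 67.4% and 72.2% of mutant and 25.8% and 27.1% of control cells (44.9% and 48.3% against 10.3% and 9.32% after thinning), and in 97.1% to 100% of stroma-marker cells, so that these cells give no background for it. Dlk1, a Notch-like ligand 88178 bases away, was at 27.6 and 24.003 against 5.15 and 2.59 CPM (2.71, adjusted p = 0.0214), but single cells carried it. One cell held 74.7% of the Dlk1 UMIs of mouse 1, 1 held 91.3% of those of mouse 2 and 1 held 78.3% of those of mouse 3. Without the highest cell of each mouse Dlk1 was at 6.95 and 2.07 against 1.11 and 2.35 CPM, and the groups overlapped. For Meg3 the highest cell held at most 16.7%. Rian, a noncoding RNA of the same cluster named after its values were seen, was at 26.7 and 30.2 against 7.38 and 2.33 CPM (2.51, adjusted p = 0.064 by edgeR and 1.56e-05 by DESeq2). H19 was at 180 and 145 against 300 and 277 CPM (-0.83, adjusted p = 0.0856 by edgeR and 0.00191 by DESeq2), and the cell cycle inhibitor Cdkn1c at 53.7 and 48.8 against 254 and 121 CPM (-1.88, adjusted p = 0.0824 by edgeR and 0.0385 by DESeq2).

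Chromatin and zinc finger genes gave further calls. Resf1, which takes part in silencing retroelements, was at 124 and 145 against 48.1 and 42.7 CPM (log2 fold change 1.56). Of 37 tested genes of the Zfp9xx series, 2 were called, Zfp934 at 21.2 and 19.5 against 5.59 and 5.43 CPM (1.88) and Zfp992 at 21.2 and 18.5 against 5.82 and 3.62 CPM (2.05). The median over the 37 was 0.37, with 29 positive and 8 negative values (49.5% of all genes tested were positive), and 8 genes were higher (21.6%, against 6.14% of all genes) and 0 lower at p under 0.05. Of 13 tested TRIM28 and heterochromatin partners, Trim28 alone was called. Beside Meg3, 8 called genes were not protein-coding, among them Gm11100 at 194 and 258 against 12.8 and 36.5 CPM and Gm49708 at 94.7 and 113 against 15.2 and 22.5 CPM. Gm47547, annotated as antisense, had 99 UMIs in mutant and 1 in control cells, a ratio of 77.6 with a 95% counting interval of 13.6 to 3094. No source used here says whether counting used the strand, so Gm47547 cannot be told apart from a gene on the other strand.

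Some called genes were neighbours. Starts lay within 1000000 bases for 5 pairs of called genes: Dlk1 and Meg3, Nat8f5 and Nat8 (13170 bases), 2810429I04Rik and Akr1c18 (654385 bases), Akr1c18 and Akr1c21 (441460 bases), and Zfp934 and Fbp2 (357050 bases). Akr1c18 spans 4132615 to 4150654 and Akr1c21 4574075 to 4586541 of chromosome 13 (GRCm38). Nat8 spans 85830388 to 85832082 of chromosome 6, Acmsd 127729413 to 127767978 of chromosome 1 and Meg3 109541001 to 109571726 of chromosome 12.

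Promoters, taken as RefSeq windows of 300 bases around each start, were searched on both strands for CAAAGTCC, a core of the motif of the proximal tubule factor HNF4A, and for TATAAA. The core was in 1.63% of 27025 genes with a window, and TATAAA in 15.7%. Of 29 called genes with a window, Fbp2 and Nat8 held the core, and of 16 leading genes with a window 0 did. TATAAA was in 3 of the 29 (10.3%) and in 4 of the 16 (25%). Nat8 has 2 windows, and the one not shown, further upstream, holds neither motif. The windows of both are shown with that of the marker Slc34a1, which was looked up for the rule, 5′ to 3′ on the strand of the gene (GRCm38.p6), with motif letters in capitals.
Slc34a1, chr13:55399398-55399697, plus strand: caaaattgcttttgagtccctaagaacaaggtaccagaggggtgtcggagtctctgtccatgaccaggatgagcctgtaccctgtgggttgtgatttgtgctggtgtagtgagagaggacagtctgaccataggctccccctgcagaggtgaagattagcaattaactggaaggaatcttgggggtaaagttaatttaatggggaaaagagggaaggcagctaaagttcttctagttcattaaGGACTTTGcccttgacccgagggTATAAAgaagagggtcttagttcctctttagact
Nat8, chr6:85832230-85832529, minus strand: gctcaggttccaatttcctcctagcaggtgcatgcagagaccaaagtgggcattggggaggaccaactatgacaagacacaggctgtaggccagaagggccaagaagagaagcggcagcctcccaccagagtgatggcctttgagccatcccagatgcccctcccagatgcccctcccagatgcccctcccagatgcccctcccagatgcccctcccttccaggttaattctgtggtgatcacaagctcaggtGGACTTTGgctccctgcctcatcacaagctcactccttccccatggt
Fbp2, chr13:62858351-62858650, minus strand: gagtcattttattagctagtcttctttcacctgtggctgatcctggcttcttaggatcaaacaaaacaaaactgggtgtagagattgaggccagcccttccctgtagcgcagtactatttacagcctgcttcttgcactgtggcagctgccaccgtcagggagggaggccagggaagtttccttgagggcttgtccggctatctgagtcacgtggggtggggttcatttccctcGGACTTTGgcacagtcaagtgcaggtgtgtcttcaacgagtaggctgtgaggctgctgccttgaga
The capitals describe letters only. Of 17 tested transcription factors of the proximal tubule edgeR called 0 and DESeq2 0, with 1 higher and 2 lower at p under 0.05. Hnf4a itself was at 140 and 159 CPM in mutant cells and at 140 and 138 CPM in control cells (log2 fold change 0.10, SE 0.12, adjusted p = 0.805).

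The machinery of reabsorption gave no call, and its counts at p under 0.05 stand against 6.14% higher and 5.09% lower over all genes tested. Of 20 tested genes of sodium, phosphate, sugar and bicarbonate transport edgeR called 0 and DESeq2 0, with 5 higher and 1 lower at p under 0.05 and a median log2 fold change of 0.15. Fxyd2, a modulator of the sodium pump, ranged from 5437 to 6124 CPM. Of 17 amino acid and peptide transport genes edgeR called 0 and DESeq2 0, with 6 higher and 2 lower at p under 0.05. Slc3a1, which is mutated in cystinuria, was at 184 and 162 against 115 and 121 CPM (log2 fold change 0.55, adjusted p = 0.169). Of 14 endocytosis genes edgeR called 0 and DESeq2 0, with 2 higher and 1 lower at p under 0.05, from which nothing is read. The uptake receptor Lrp2 (megalin) ranged from 1095 to 1241 CPM with overlapping groups, and its partner Cubn was at 198 and 179 against 148 and 189 CPM (0.16, SE 0.15, adjusted p = 0.741). Of 20 brush border genes edgeR called 0 and DESeq2 0, with 8 higher and 0 lower at p under 0.05. Ggt1, which splits glutathione, was at 966 and 924 against 696 and 711 CPM (0.43, adjusted p = 0.187), and the meprin Mep1a at 752 and 733 against 538 and 607 CPM (0.38, adjusted p = 0.293).

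Organic ion transport and amino acid metabolism each had a median log2 fold change of 0.41, against a median of -0.00 over all genes tested. Of the 19 ion transport genes 8 were higher (42.1%, against 6.14% of all genes) and 0 lower at p under 0.05, and DESeq2 called 3 as higher. Slc22a2, the cation transporter OCT2, was at 241 and 192 against 140 and 145 CPM (0.60, adjusted p = 0.186), and Abcg2, a urate exporter, at 390 and 361 against 272 and 339 CPM (0.30, adjusted p = 0.484). Of the 20 genes of amino acid, creatine and one-carbon metabolism 10 were higher (50%) and 0 lower at p under 0.05, edgeR called Acmsd and DESeq2 called Acmsd and Aadat. Aadat, an aminotransferase of kynurenine that also marks the straight segment, was at 478 and 385 against 152 and 241 CPM (1.13, SE 0.22, adjusted p = 0.114 by edgeR and 0.000152 by DESeq2). The 6 straight-segment markers summed to 804 and 637 CPM in mutant and to 360 and 531 CPM in control cells, against 153 CPM in free RNA, with 4 positive and 2 negative values and 1 in each direction at p under 0.05 (Aadat higher, the glucose transporter Slc5a1 lower). Cells with 10 or more UMIs of the straight-segment markers Aadat and Serpina6 made up 22.5% and 18.8% of mutant and 11.0% and 14.4% of control cells. The level of Aadat itself moves these shares, so they are no separate measure of straight-segment cells. The part of such cells in the values of these lists was not tested.

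The lists of energy metabolism, which do not hold the called gene Fbp2, gave no call by edgeR. All 17 tested glycolysis genes had a negative log2 fold change, with a median of -0.61, 8 of them lower at p under 0.05 (against 5.09% of all genes), and DESeq2 called 1, Pkm, as lower. Ldha was at 611 and 659 against 1091 and 700 CPM, and Tpi1 at 748 and 823 against 1188 and 818 CPM. Mouse 3 stood apart, since the list summed to 8857 CPM there and to 5645, 5907 and 5939 CPM in mice 1, 2 and 4. Of 80 nuclear genes of oxidative phosphorylation 76 had a positive value, with a median of 0.18, 14 higher and 1 lower at p under 0.05, and 0 called by DESeq2. The mitochondrially encoded genes summed to 61999 and 58271 against 49005 and 57325 CPM, lowest in mouse 3, with 12 of 13 positive, a median of 0.30 and 0 called by either tool, and their part in the nuclear values was not tested. Of 80 cytosolic ribosomal protein genes 79 were negative, with a median of -0.18, 9 lower at p under 0.05, and 0 called by DESeq2. Of 11 genes of gluconeogenesis and fructose use 2 were higher and 0 lower at p under 0.05, with 0 called by either tool; Fbp2, described above and called by both, is not on this list. Of 27 genes of beta-oxidation 4 were higher and 3 lower at p under 0.05, and DESeq2 called 1, Acsm3, as higher. Nothing is read from these counts of 2 to 4 genes at p under 0.05. Acadm, the medium-chain dehydrogenase, was at 859 and 693 against 513 and 543 CPM (0.56, adjusted p = 0.186), and Acsm2, a medium-chain acyl-CoA synthetase, at 343 and 330 against 448 and 460 CPM (-0.43, adjusted p = 0.2).

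**Figure D4:**
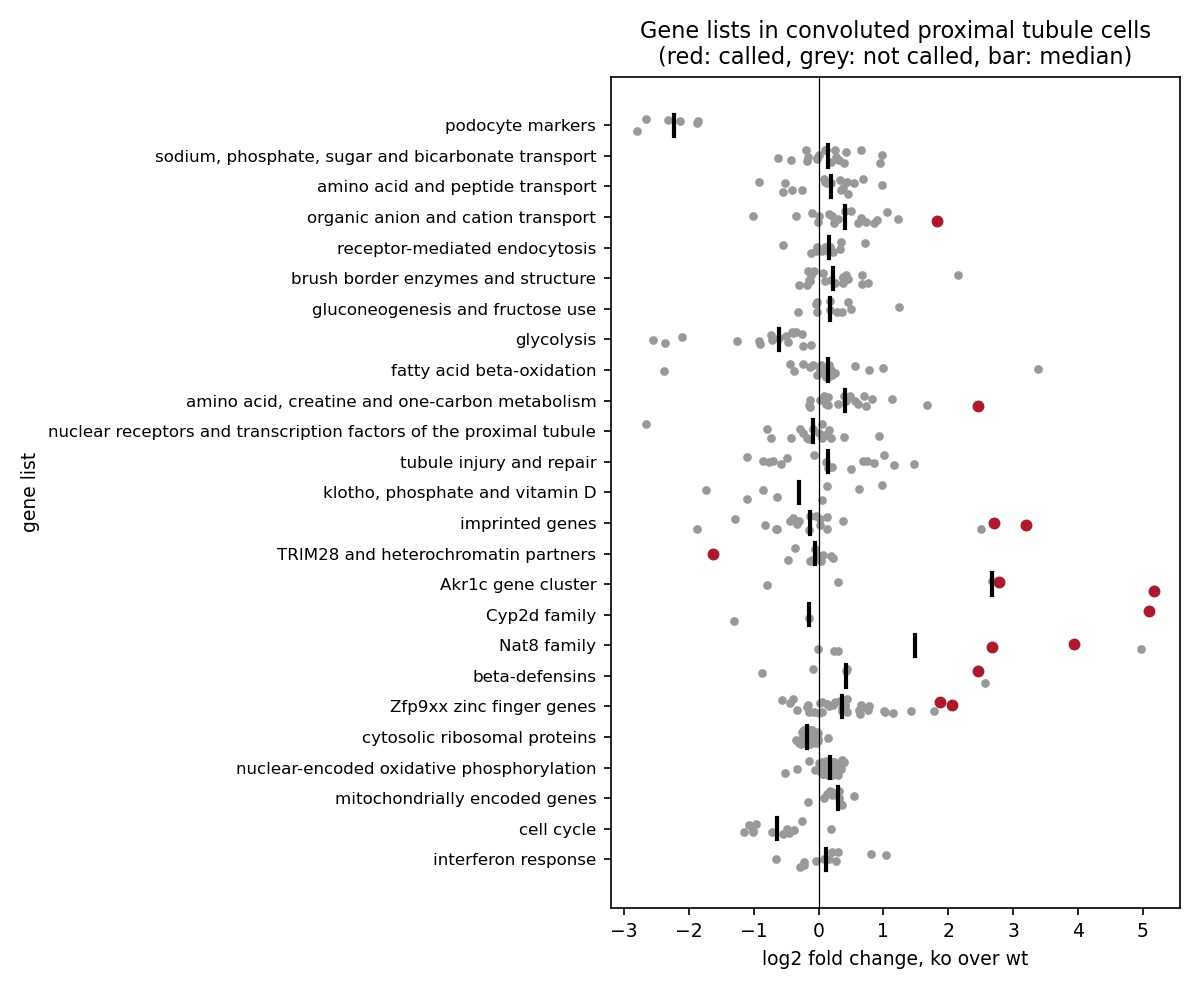
Log2 fold change (ko over wt) in convoluted proximal tubule cells of each tested gene, by list, with called genes in red, the others in grey and the median as a bar. Medians lie at -0.61 for glycolysis, at 0.41 for organic ion transport and for amino acid metabolism and at -2.22 for podocyte markers, where no gene is red.

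Of 17 tested genes of tubule injury and repair edgeR called 0 and DESeq2 1, Vcam1. At p under 0.05, 4 were higher (23.5%) and 6 lower (35.3%), against 6.14% and 5.09% of all genes. Spp1, Vcam1, Prom1 and Kl are given because the paper names them, and they do not stand for the list. Spp1 (osteopontin) was at 723 and 743 CPM in mutant cells and at 223 and 504 CPM in control cells (log2 fold change 1.01, SE 0.32, adjusted p = 0.315). Vcam1, an adhesion molecule, was at 167 and 166 against 98.2 and 49.7 CPM (1.16, SE 0.27, adjusted p = 0.185 by edgeR and 0.00274 by DESeq2), and Prom1 at 63.5 and 69.6 against 29.3 and 44.8 CPM (0.85, SE 0.21, adjusted p = 0.196). In these 3 genes both mutant mice lay above both controls, as in 21.7% of all genes tested. Kl, the coreceptor of FGF23, was at 74.9 and 62.4 against 77.7 and 172 CPM (-0.86, SE 0.33, adjusted p = 0.407). Of 8 genes of klotho, phosphate and vitamin D edgeR called 0 and DESeq2 0. At p under 0.05, 2 of these were higher (25%) and 3 lower (37.5%). Of the identity markers Gatm was at 605 and 620 against 542 and 806 CPM (-0.14, adjusted p = 0.825), Slc22a6 at 457 and 450 against 347 and 426 CPM (0.23, adjusted p = 0.573) and Spp2 at 1292 and 1364 against 1350 and 1658 CPM (-0.18, adjusted p = 0.649).

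RNA of another cell type differed most for podocytes, the filtering cells of the glomerulus. The 6 podocyte markers summed to 34.2 and 28.3 CPM in mutant and to 232 and 70.4 CPM in control cells, against 194 CPM in free RNA. All 6 were negative at p under 0.05 (5.09% of all genes were lower), with a median log2 fold change of -2.22. Of the 6, edgeR called 0 and DESeq2 3, against 0.333% and 0.982% of all genes. Wt1 was at 12.7 and 8.69 against 52.6 and 24.8 CPM (-1.86, adjusted p = 0.123). The 26 cells with 5 or more podocyte UMIs numbered 5, 5, 10 and 6 in mice 1 to 4, and without them 58 genes were called higher and 11 lower, 39 of the 40 among them. Markers of nephron progenitors, loop of Henle, distal tubule, collecting duct, stroma, endothelium and immune cells each summed to 23.0 to 137 CPM, below their sums in free RNA, with 0 called by edgeR and by DESeq2 and at most 2 genes of a list at p under 0.05. Both mutant sums lay below both control sums for progenitors (34.6 and 28.5 against 54.8 and 54.1 CPM), collecting duct (60.1 and 93.2 against 137 and 106 CPM) and immune cells (28.9 and 32.5 against 40.3 and 54.6 CPM). The sums of the other lists in this group overlapped. Early proximal tubule markers, of cells not yet mature, summed to 288 and 321 CPM in mutant and to 412 and 363 CPM in control cells, against 346 CPM in free RNA. Of these 6 markers, 3 were lower at p under 0.05 (50%, against 5.09% of all genes) and 0 were called by either tool. Erythroid markers summed to 604 to 2431 CPM against 32213 CPM in free RNA. Of 12 cell cycle genes 6 were lower at p under 0.05 (50%, against 5.09% of all genes), and edgeR called 0 and DESeq2 1, Cenpf, as lower. Mouse 3 had the highest sum of these genes, 600.4 CPM against 283 to 354 CPM. The part of these in the other results was not tested.

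Whether the genotype effect differed from that in the remaining tagged cells was tested by the interaction of genotype and cell class, with mice as blocks. Of 15138 genes 23 were called (0.152%), 11 with a higher and 12 with a lower effect in the convoluted proximal tubule cells. From the 40 genes, 9 were among them: Acmsd, Ivd, Dlk1, Cdkal1, Mpv17l, Aldh1a2, Dctd, Ppat and Nat8. Acmsd was at 4.51 and 4.01 against 2.88 and 3.08 CPM in the other cells (interaction 1.92 on the log2 scale, SE 0.19, adjusted p = 0.00442, edgeR). Ivd was at 39.7 and 40.5 against 38.2 and 33.5 CPM there (1.39, adjusted p = 0.00442), and Cdkal1, which modifies a transfer RNA, at 18.3 and 18.5 against 20.6 and 18.6 CPM (1.58, adjusted p = 0.00907). Among the genes with a lower effect were S100a10, S100a11 and Anxa2, which belong to calcium-dependent membrane complexes, and the actin-binding Tmsb4x. S100a10 was at 262 and 254 against 411 and 336 CPM in the proximal tubule cells and at 448 and 349 against 261 and 250 CPM in the others (-1.17, SE 0.13, adjusted p = 0.00787). The other cells differ in makeup between genotypes, so composition and response cannot be told apart in this test. Free RNA held 21.4 CPM of Acmsd and 25.4 CPM of Nat8, above their levels in the other cells (up to 4.51 and 7.67 CPM). Its part in these interactions was not tested. The number of calls was 74 without mouse 2, 381 without mouse 3 and 392 without mouse 4.

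Closer comparisons used tagged cells with markers of neighbouring segments that did not meet the rule, both of the Six2 lineage: 116 straight-segment cells (10 or more UMIs of Aadat and Serpina6) and 362 loop of Henle cells (20 or more UMIs of Slc12a1 and Umod). Aadat was higher in mutant convoluted cells, so its level may also move which straight-segment cells of each genotype were taken, which was not tested. Between convoluted and straight-segment cells the effect differed for 33 of 11435 genes (0.289%), 12 with a higher and 21 with a lower effect in convoluted cells. Of the 40 called genes, Ttr (difference of effects 1.96), Inmt (2.11) and Dlk1 (7.42) had a higher and Gm11100 (-2.28) a lower effect there. The value of Dlk1 rests on single cells. Other genes called against all other tagged cells had these log2 fold changes in straight-segment cells on their own: Ivd 1.54, Mpv17l 2.67, Nat8 2.44, Ppat 1.31, Aldh1a2 1.09 and Cdkal1 0.71. Of these, Mpv17l alone was called there. Ttr was at 511 and 891 against 343 and 557 CPM in straight-segment cells, where the groups overlapped. The effect also differed for Vcam1, which was called in straight-segment cells on their own, at 227 and 227 against 38.4 and 30.04 CPM (log2 fold change 2.69, SE 0.28, adjusted p = 0.0156; difference of effects, convoluted less straight, -1.50, adjusted p = 0.0287). Between convoluted and loop cells the effect differed for 15 of 12703 genes (0.118%), 4 with a higher and 11 with a lower effect in convoluted cells. Ivd (1.53) and Defb29 (2.86) were among those with a higher effect. Loop cells held only 3.97 to 7.09 CPM of Defb29, below the 48.9 CPM of free RNA. The part of free RNA in that difference was not tested. Fitted on their own, straight-segment cells gave a call for 5 of the 29 called genes that could be tested there (0.144% of all genes tested), and loop cells for 5 of 21 (0.228%). These fits use the same mice as the calls and are no independent evidence of them. Akr1c18 was at 276 and 284 against 0 and 14.02 CPM in straight-segment cells and at 0.788 to 2.91 CPM in loop cells. Akr1c21 was at 120 and 110 against 13.7 and 10.0 CPM in straight-segment cells, and Meg3 at 1229 and 702 against 57.2 and 62.4 CPM in loop cells. A missing interaction call does not show that segments responded alike, since a straight-segment sum held 20 to 42 cells.

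**Figure D5:**
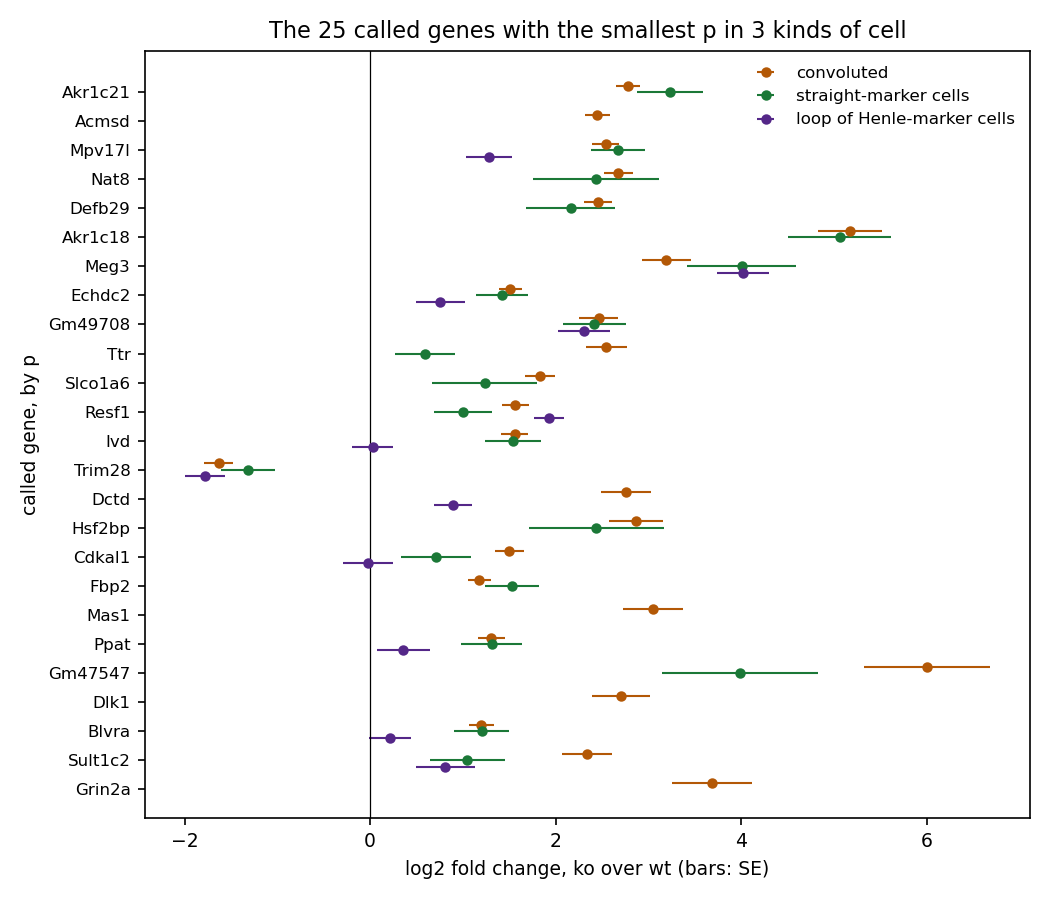
Log2 fold change (ko over wt, bars give the SE) of the 25 called genes with the smallest p in convoluted proximal tubule cells (orange), straight-segment marker cells (green) and loop of Henle marker cells (purple), where tested. Akr1c21 and Akr1c18 lie at 2.78 and 5.17 in convoluted and at 3.23 and 5.06 in straight-segment cells. Ivd lies at 1.56 in convoluted, 1.54 in straight-segment and 0.03 in loop cells. The value of Gm47547 rests on 1 control UMI.

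The cells were also divided at 40 UMIs of Fbp1 and Slc34a1, to see whether the calls lay at one end of the rule; cells of both ranges enter the calls, so this is a description. In both ranges 36 of the 38 higher genes had both mutant mice above both controls, Dlk1 and Guca2b being the exceptions, against 9.55% of all genes tested. Akr1c18 was at 192 and 171 against 1.28 and 6.51 CPM in the lower and at 169 and 112 against 8.60 and 0.364 CPM in the higher range. Levels themselves could differ between ranges: Acmsd was at 65.2 and 110 against 15.99 and 16.7 CPM in the lower and at 203 and 212 against 38.5 and 38.6 CPM in the higher range.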

How the data were processed

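Tagged cells of embryonic kidneys, from 4 listed mice and from mice not given, were captured as 1 pool with the 10x 3′ kit. The deposited file holds raw UMI counts per gene or tag and barcode, which the authors made with Cell Ranger (6.0.0 by the submitters' processing notes, 4 in the matrix header) on GRCm38. The authors' later analysis used Seurat (4.0). Depth was 3837903 to 5322779 UMIs per mouse in the convoluted proximal tubule cells. Intervals cover counting error only. The p-values rest on the spread between 2 mice of each genotype, which edgeR and DESeq2 estimate with the help of the other genes. From 21386 barcodes with at least 6890 UMIs, 19273 passed the gene and mitochondrial limits and 6495 carried a tag of 1 listed mouse; 3603 carried an unlisted tag and were left out. Counts were summed per mouse, filtered with filterByExpr, scaled by TMM and tested with edgeR 4.0.16 (R 4.3.3); DESeq2 1.42.0 was an alternative, and Scrublet ran in scanpy 1.11.5, with marked cells kept. The study tested cells as replicates, whereas mice were the replicates here. SE was taken from the fold change and its F statistic. On simulated counts for the genotype comparison (11790 genes) the test recovered 52% of genes changed 2-fold and 93% of those changed 4-fold, with 5 unchanged genes called. Named were the given markers, Trim28 and genes the paper names for proximal tubule, the 10 called genes of smallest p in each direction, called and abundant genes of each list, and the 20 leading genes; other genes were chosen after their values were seen, the rest of the 40 called genes among them. The cells and lists were chosen with earlier results of these data known. Some genes that met this rule are not reported here.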

Additional observations from a re-analysis of the deposited data

Results flagged for a closer look

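The genotype effect differed between convoluted proximal tubule cells and the other tagged cells in 23 genes (edgeR interaction test, mice as blocks, adjusted p under 0.05), and the values below are interaction terms on the log2 scale. The effect was higher in the convoluted proximal tubule cells for Acmsd (1.92), Ivd (1.39), Dlk1 (2.54), Cdkal1 (1.58), Mpv17l (1.27), Aldh1a2 (0.88), Dctd (2.21), Ppat (1.12) and Nat8 (1.36). It was also higher for Idi1 (0.985), of isoprenoid synthesis, and for the zinc finger gene Zfp148 (0.906). The value of Dlk1 rests on single cells, as given above. These terms compare with all other tagged cells together. Ivd, Mpv17l, Nat8, Ppat and Aldh1a2 had fold changes of like size in straight-segment cells, as given above, so they are not particular to the convoluted cells.

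The effect was lower for Fabp4 (-1.54), S100a10 (-1.17), Sema3c (-0.995), Gata3 (-1.31), Tmsb4x (-0.989), Ly6a (-0.575), Rhob (-1.29), Tspan8 (-1.29), Ucp2 (-1.4), Ugt8a (-2.17), S100a11 (-0.696) and Anxa2 (-0.87). Fabp4, a fatty acid carrier of endothelium and fat, was at 992 and 574 CPM in the other cells of the Trim28Δ/Δ mice and at 468 and 382 CPM in those of the controls. In the convoluted proximal tubule cells it was at 95.9 and 80.5 against 148 and 135 CPM.

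In data that no comparison used, 211 cells with 1 of 4 tags that the feature list does not name met the rule for convoluted proximal tubule cells. They made up 3.41%, 2.98%, 7.72% and 9.68% of the cells of the 4 tags. Their mice and genotypes are not given, so they entered no group.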

How the results depend on the processing

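The share difference kept its direction under every alternative run, from 3.04 to 8.93 points, and from 6.73 to 9.09 with 1 mouse left out. The number of called genes (40) was 70 with cells chosen by Gatm, Slc22a6 and Spp2, 100 by Fbp1 and Slc34a1 per 10000 UMIs, 17 without a count filter, 118 by DESeq2 and, added after seeing the data, 69 without podocyte-marker cells; leaving out a mouse gave 0 to 140. The number of interaction calls (23) was 7 and 14 at 10 and 40 UMIs, 6 per 10000, 8 at 5% mitochondrial UMIs, 79 with the stricter tag rule, 77 with thinned cells, 415 without a count filter and 70 without podocyte-marker cells; leaving out a mouse gave 25 to 392. The causes were not tested. The median UMI difference turned to -2681 without mouse 3, with a range of -2681 to 3366 over the mice left out, and the gene difference to -20 without mouse 2 and -246.2 without mouse 3, with a range of -246.2 to 255.8. Among genes not called, leaving out 1 mouse took the gene Gatm from -0.402 to 0.176 (positive without mouse 4), the gene Cubn from -0.00924 (without mouse 3) to 0.344 and the gene Defb19 from -0.541 to 0.546 (positive without mouse 4, and 0.082 without mouse 1). The gene Defb19 was at 0.00914 by the Gatm rule and 0.0827 at 5% mitochondrial UMIs, and the gene Cyp2d26 at 0.00854 at 10 UMIs and 0.179 at 5% mitochondrial UMIs, all against negative values. No paired analysis was possible because each mouse of the pool has its own number. With 2 mice a genotype, changes near 2-fold are often missed at this depth.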
